A study of Mus musculus with 8 samples.

Results

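The CCN family is a small set of secreted, cysteine-rich matrix proteins, and 5 of its genes were followed here by RNA-seq of mouse cardiac fibroblasts. The members were the rows of the deposited gene table with the symbols Ccn1, Ccn2, Ccn3, Ccn4 and Ccn5 (formerly Cyr61, Ctgf, Nov, Wisp1 and Wisp2). They were 5 of 22274 genes in the table, and all 5 passed the filter on low counts that left 13533 genes for testing. Ccn6, a more distant relative outside this choice, had 0 counts in 6 of the 8 libraries and 1 count in each of OEIRF7 replicates 3 and 4, and was not tested.

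The study asked how the transcription factor IRF7 alters fibroblast activation. Primary murine cardiac fibroblasts were transduced with a control virus (4 libraries labelled GFP) or an IRF7 virus (4 libraries labelled OEIRF7), and both groups then received TGF-β at 5 ng/ml for 24 h. There was no library without TGF-β, so the values compare TGF-β-treated cells only. The study's methods describe empty-vector and FLAG-tagged IRF7 adenoviruses and list a human IRF7 construct under the CMV promoter, which is active in most cell types, whereas the deposited design text names an adeno-associated virus. The methods place the study's mouse strains on a C57BL/6 J background, without an age for the mice behind these cells. A legend that covers several assays speaks of biological replicates, but in a number other than that of these libraries, and nothing ties the 4 libraries of a group to separate cultures or animals, so the p-values measure only the spread between these samples, which may be technical.

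CCN proteins are matricellular: they sit in the matrix, bind integrins, heparan sulphate proteoglycans and growth factors, and alter how cells respond to both. They share an insulin-like growth factor binding module, a von Willebrand factor type C module and a thrombospondin type 1 module, followed in all but CCN5 by a C-terminal cystine knot. CCN2 is the classic TGF-β-induced profibrotic member, CCN5 has been described as an antifibrotic counterpart in the heart, and CCN1 and CCN2 are much used as readouts of YAP and TAZ, the co-activators of TEAD factors in the Hippo pathway.

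The members lie on 4 chromosomes of GRCm38, each with 5 exons in its principal GENCODE M21 transcript. Ccn1 (ENSMUSG00000028195) lies on chromosome 3 (145646976 to 145649981, minus strand), Ccn2 (ENSMUSG00000019997) on chromosome 10 (24595442 to 24598683, plus), and Ccn5 (ENSMUSG00000027656) on chromosome 2 (163820861 to 163833146, plus). Ccn3 (ENSMUSG00000037362, 54745702 to 54754039) and Ccn4 (ENSMUSG00000005124, 66891320 to 66923201) are both on the plus strand of chromosome 15. The annotation places a processed transcript, Gm15270, on the opposite strand of Ccn2, and the strand setting of the counting was not given in the sources used here. The coding sequences, without the stop codon, hold 1137, 1044, 1062, 1101 and 753 bases from Ccn1 to Ccn5. In a multiple alignment the coding sequences of the first 4 ran on for 275 to 281 bases past the last base of Ccn5, the end that holds the sequence of the C-terminal cystine knot.

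A window of 60 coding bases from the thrombospondin type 1 module shows the members where they are most alike. It was chosen as the gap-free window of the alignment with the most bases shared by all 5. Capitals mark the 30 positions with the same base in all 5, and the sequences come from the GENCODE M21 transcripts, 5′ to 3′.
Ccn1, coding bases 699 to 758: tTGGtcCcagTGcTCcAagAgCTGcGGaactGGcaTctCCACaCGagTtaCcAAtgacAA
Ccn2, coding bases 612 to 671: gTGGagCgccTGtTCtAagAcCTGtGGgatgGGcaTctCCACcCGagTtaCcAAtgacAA
Ccn3, coding bases 627 to 686: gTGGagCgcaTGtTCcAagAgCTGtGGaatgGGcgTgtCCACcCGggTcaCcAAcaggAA
Ccn4, coding bases 666 to 725: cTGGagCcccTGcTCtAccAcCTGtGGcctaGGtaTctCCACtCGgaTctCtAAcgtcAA
Ccn5, coding bases 603 to 662: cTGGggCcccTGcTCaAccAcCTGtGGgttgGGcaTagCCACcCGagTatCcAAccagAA
Over the aligned coding sequence, identity between members ran from 51.3% (Ccn1 and Ccn4) to 59.2% (Ccn2 and Ccn3). The longest run shared by the transcripts of any pair was 28 bases, in Ccn2 and Ccn3, against reads of 150 bases.

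Of the 5 members, the RefSeq promoter table for GRCm38.p6 held Ccn1. Its 150 bases before the start (chr3:145649986-145650135, minus strand, read 5′ to 3′) are shown because Ccn1 is a standard TEAD target, and the capitals mark the match to the TEAD site.
Ccn1 promoter: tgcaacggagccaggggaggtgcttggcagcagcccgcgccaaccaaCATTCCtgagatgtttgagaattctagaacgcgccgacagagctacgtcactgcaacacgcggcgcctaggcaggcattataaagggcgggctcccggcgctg
Motifs were searched on both strands of the whole 300-base window, from 250 bases before to 50 bases after the start. The TEAD site GGAATG matched once, at -103 to -98 from the start, and 14.66% of the 32851 promoters in the table hold it. The match lies on the strand opposite to the one printed, which therefore shows CATTCC. The SMAD half-site CAGAC matched once, after the start, and is held by 49.59% of promoters. The AP-1 site TGANTCA (7.81% of promoters), the interferon-stimulated response element (3.44%) and the CArG box of SRF (1.63%) had 0 matches in this window.

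Library totals ran from 24888589 to 27095611 counts in GFP and from 24454801 to 28658826 in OEIRF7, principal component 1 took up 72.7% of variance, and 7969 of 13533 genes (58.9%) passed edgeR's quasi-likelihood test at an adjusted p under 0.05, 3924 of them higher and 4045 lower in OEIRF7. The targeted gene was checked first. Mouse Irf7 had 2861, 3680, 2272 and 3291 counts in GFP replicates 1 to 4 and 385, 421, 380 and 404 counts in the libraries labelled OEIRF7. Mouse Irf7 RNA was therefore lower, not higher, in every library labelled OEIRF7, with 118 ± 23.96 CPM (read counts scaled to library size) in GFP and 15.2 ± 0.822 in OEIRF7 (SD, n = 4 each). Reads of the introduced construct were not analysed here, so each direction below is that of the labels.

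The 10 fibroblast markers were all tested and summed to 13564.7 to 14005.5 CPM in GFP and 12609.2 to 13609.2 in OEIRF7, mostly from Col1a1, Col1a2, Vim and Col3a1, with 2 called higher and 5 lower by edgeR, and the 10 cardiomyocyte markers, of which 2 passed the filter on low counts and 1 was called lower, to 10.4 to 14.02 and 8.68 to 10.5 CPM. The 9 macrophage and leukocyte markers summed to 293 to 350 CPM in GFP and 378 to 417 in OEIRF7, with 5 called higher by edgeR, and the 8 epicardial and mesothelial markers to 220 to 233 and 155 to 168 CPM, with 2 higher and 4 lower. The 8 endothelial markers summed to 229 to 241 and 233 to 260 CPM, with 3 higher and 1 lower. The 8 mural markers summed to 1403 to 1525 and 1293 to 1447 CPM, mostly from Pdgfrb, with 3 higher and 3 lower. Both of these sums overlapped between groups. Over all genes tested, 29.0% were called higher and 29.9% lower. The part of these cell types in the results below was not tested, and in bulk RNA fewer cells of a type and less RNA per cell cannot be told apart.

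Of the 5 CCN genes, 4 were lower in OEIRF7 and passed the test (Ccn1, Ccn2, Ccn4 and Ccn5), against a background of 29.9% of tested genes called lower. None was called higher in the main edgeR fit, 0 also at an unadjusted p under 0.05 and 0 in DESeq2, against 29.0% of tested genes. Ccn3 was called higher in 2 other edgeR fits given below. The median log2 fold change of the 5 was -0.27 beside 0.0015 over all genes tested. The fall was uneven. Ccn5 fell by 59.8%, while Ccn1 fell by 18.2%, Ccn4 fell by 17.05% and Ccn2 fell by 9.31%, so Ccn5 was the one member past the 1.5-fold limit of the study's methods.

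**Figure D1:**
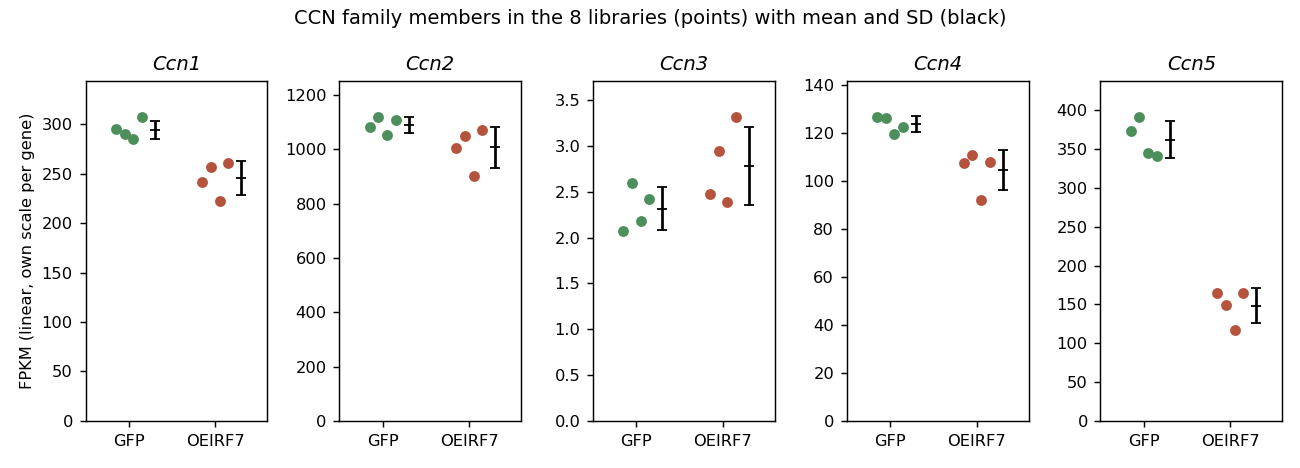
FPKM (fragment counts scaled to gene length and library size, linear axes from 0 with a separate scale for each gene) of the 5 CCN genes in the 4 GFP (green) and 4 OEIRF7 (red) libraries, with group means and SDs as black bars. The Ccn5 points fall from between 341 and 391 to between 117 and 164, the Ccn1 and Ccn4 groups separate by a small margin, and the Ccn2 and Ccn3 groups overlap.

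Levels between genes were compared as FPKM, which is scaled by gene length. In GFP the order was Ccn2 (1089 ± 29.4 FPKM), Ccn5 (363 ± 23.9), Ccn1 (294 ± 9.32), Ccn4 (124 ± 3.35) and Ccn3 (2.32 ± 0.234; SD, n = 4 for each). In OEIRF7 the order was Ccn2 (1007 ± 75.6), Ccn1 (245 ± 17.4), Ccn5 (149 ± 22.3), Ccn4 (105 ± 8.42) and Ccn3 (2.78 ± 0.428). Ccn5 and Ccn1 thus exchanged places. No neighbours in either order overlapped in FPKM, the narrowest margins being 34.1 FPKM between the lowest Ccn5 and the highest Ccn1 value in GFP and 6.01 FPKM between the lowest Ccn5 and the highest Ccn4 value in OEIRF7. Ranked by mean FPKM among all genes of the table, Ccn2 went from place 29 to 33, Ccn5 from 140 to 472, Ccn1 from 199 to 256, Ccn4 from 541 to 707 and Ccn3 from 9940 to 9616.

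Ccn5 codes for the member without the C-terminal cystine knot. Its counts were 17399, 16912, 14743 and 15551 in GFP replicates 1 to 4 and 7187, 7331, 5108 and 6903 in OEIRF7. Every OEIRF7 library lay far below every GFP library, with replicate 3 the lowest. On the CPM scale, after scaling with edgeR's TMM factors, the groups held 629 ± 41.1 and 253 ± 37.1 (SD, n = 4 each). The log2 fold change was -1.31 (SE 0.0831, 95% interval -1.49 to -1.14), with an adjusted p of 5.8e-09 in edgeR's quasi-likelihood test over all 13533 genes. All 16 pairings of an OEIRF7 with a GFP library were lower, and the exact two-sided permutation test gave p = 0.029, the smallest that 4 against 4 libraries allow. Calls that were lower with a log2 fold change below -1 made up 3.89% of the genes tested, and 1.96% of tested genes had a lower log2 fold change than Ccn5. Among the 326 tested genes at or above the mean CPM of Ccn5, 4 fell further, which were named after their values were seen: Acta2 (-1.83), Tbx20 (-1.82), Aldh1a1 (-1.54) and Thbs2 (-1.44).

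Ccn1 codes for an integrin- and heparin-binding protein whose gene responds within minutes to growth factors. It had 16154, 14757, 14323 and 16440 counts in GFP and 12403, 14887, 11427 and 12873 in OEIRF7. Scaled to CPM these became 603, 591, 580 and 627 in GFP and 481, 513, 449 and 522 in OEIRF7. The CPM ranges did not overlap, although the count of OEIRF7 replicate 2, the deepest library, lay among those of GFP. The log2 fold change was -0.29 (SE 0.0441, 95% interval -0.38 to -0.20), with an adjusted p of 5e-05 (edgeR) and an exact permutation p of 0.029, lower in 16 of 16 pairings.

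Ccn4, first found as a gene induced by Wnt-1, moved much as Ccn1 did. It had 638, 640, 601 and 622 CPM in GFP replicates 1 to 4 and 533, 549, 460 and 532 CPM in OEIRF7, from 11726 to 17099 counts. The groups did not overlap, and OEIRF7 replicate 3 again lay lowest. The log2 fold change was -0.27 (SE 0.0468, 95% interval -0.37 to -0.17), with an adjusted p of 0.00017 (edgeR) and an exact permutation p of 0.029. Ccn1, Ccn4 and Ccn5 were thus the 3 members whose groups did not overlap in CPM, beside 53.8% of all genes tested.

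Ccn2, connective tissue growth factor, remained the most abundant member. It had 2620, 2700, 2535 and 2681 CPM in GFP and 2376, 2476, 2153 and 2550 CPM in OEIRF7, from 54839 to 71846 counts. OEIRF7 replicate 4 exceeded GFP replicate 3, so that 15 of 16 pairings were lower. The log2 fold change of -0.14 (SE 0.0427, 95% interval -0.23 to -0.05) passed edgeR's test with an adjusted p of 0.011, while the exact permutation test gave p = 0.057. On the FPKM scale the change was -0.12 and was not called by limma (adjusted p = 0.084 on log2(FPKM + 1)).

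Ccn3, which often acts against CCN2 in other settings, was scarce. Its counts were 161, 187, 156 and 184 in GFP and 181, 242, 174 and 232 in OEIRF7. The CPM values were 6.01, 7.49, 6.32 and 7.02 in GFP and 7.02, 8.34, 6.83 and 9.41 in OEIRF7, so the groups overlapped. The log2 fold change was 0.24 (SE 0.116, 95% interval -0.01 to 0.49), with an adjusted p of 0.096 (edgeR) and an exact permutation p of 0.17. Without OEIRF7 replicate 3 the fold change was 0.30 and passed, with an adjusted p of 0.040, whereas without OEIRF7 replicate 4 it was 0.14, with an adjusted p of 0.30 (both edgeR). With the replicate number as a block in the edgeR model it was 0.23 and passed, with an adjusted p of 0.048.

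**Figure D2:**
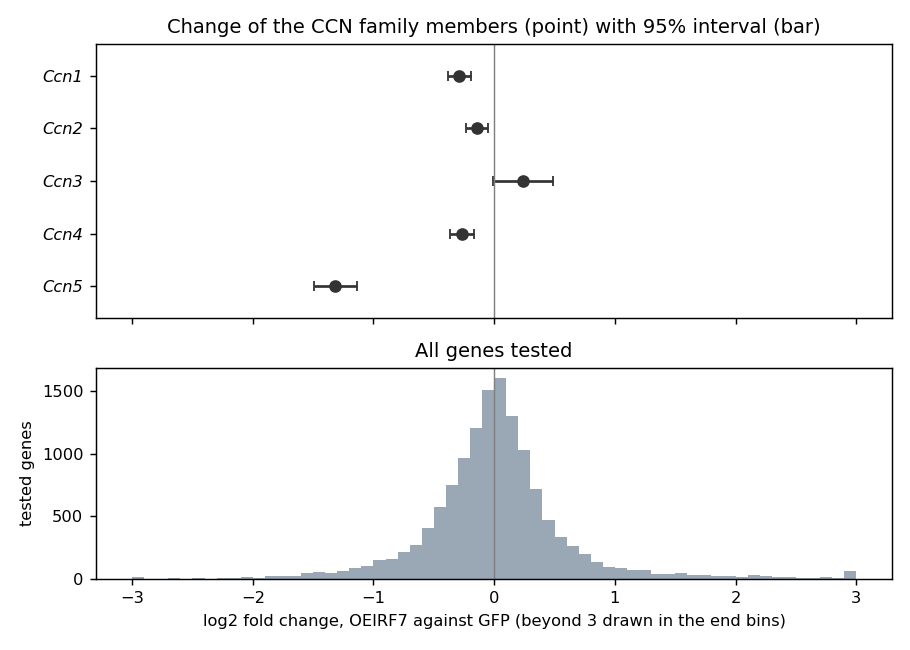
Top, log2 fold change of each CCN gene in OEIRF7 against GFP (points) with its 95% interval (bars). Bottom, the same measure for all 13533 genes tested, in bins of width 0.1. Ccn5 lies at -1.31 in the left tail, Ccn1, Ccn4 and Ccn2 lie within the broad centre, and the interval of Ccn3 spans 0.

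Whether members differed in their change was tested within libraries, as the log2 ratio of 2 members' CPM, which does not depend on library scaling. Of 10 pairs, 9 had ratios that did not overlap between the groups, each with an exact permutation p of 0.029 (adjusted over the 10 pairs, 0.032). This is the smallest p that 4 against 4 libraries allow, so it does not rank the pairs. The share of such pairs among all tested genes was not computed, and 53.8% of tested genes taken singly did not overlap. Relative to Ccn5, Ccn3 rose by 1.55, Ccn2 by 1.18, Ccn4 by 1.05 and Ccn1 by 1.03 on the log2 scale. Ccn2 also fell less than Ccn1 and Ccn4: the ratio of Ccn1 to Ccn2 changed by -0.15 and that of Ccn2 to Ccn4 by 0.13. Relative to Ccn3, Ccn1 changed by -0.52 and Ccn2 by -0.37, and the ratio of Ccn3 to Ccn4 changed by 0.50. The exception was Ccn1 and Ccn4, whose ratio changed by -0.02 (exact permutation p = 0.66) with overlapping groups. The 10 pairs share 5 genes and are not independent of each other.

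**Figure D3:**
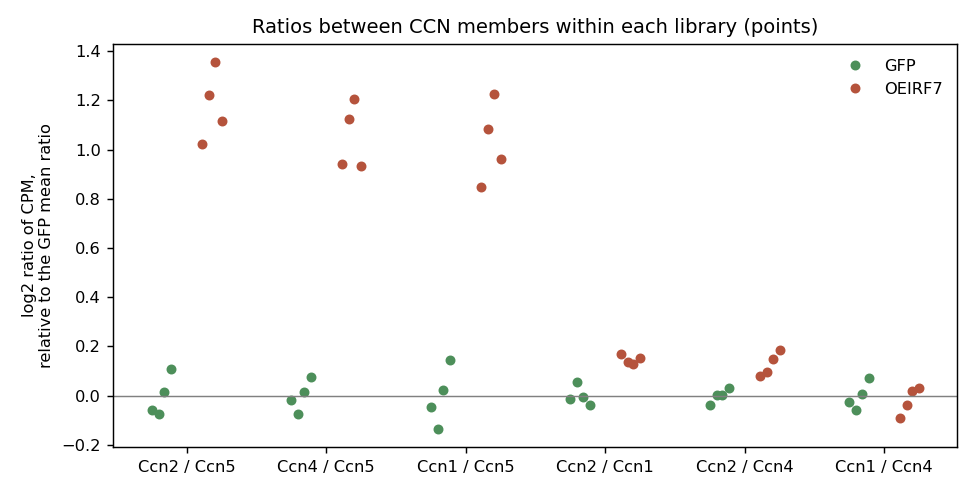
Log2 ratio of the CPM of 2 CCN genes within each library (points), for 6 of the 10 pairs, relative to the mean ratio of the GFP libraries, which is drawn as the line at 0. GFP libraries are green and OEIRF7 libraries red. The ratios to Ccn5 lie near 1 or above in OEIRF7, the ratios of Ccn2 to Ccn1 and to Ccn4 are raised slightly, and the Ccn1 to Ccn4 ratios overlap.

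The make-up of CCN RNA shifted accordingly. Summed over the 5 members, FPKM was 1879.7, 1927.8, 1802.5 and 1879.5 in GFP replicates 1 to 4 and 1519.8, 1568.7, 1335.6 and 1608.7 in OEIRF7. Every OEIRF7 sum was below every GFP sum. As a share of this sum, Ccn5 went from 19.4% ± 0.94 to 9.81% ± 0.892 and Ccn2 from 58.2% ± 0.553 to 66.8% ± 0.592 (SD, n = 4 each). The shares of Ccn1 (15.7% and 16.3%), Ccn4 (6.61% and 6.94%) and Ccn3 (0.124% and 0.184%) moved by less than 1 percentage point. There were 3.01 ± 0.176 FPKM of Ccn2 for each FPKM of Ccn5 in GFP and 6.85 ± 0.692 in OEIRF7. The shares are descriptions of the fold changes above and carry no test of their own. The ratio of Ccn2 to Ccn5 was tested above on the log2 CPM scale.

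**Figure D4:**
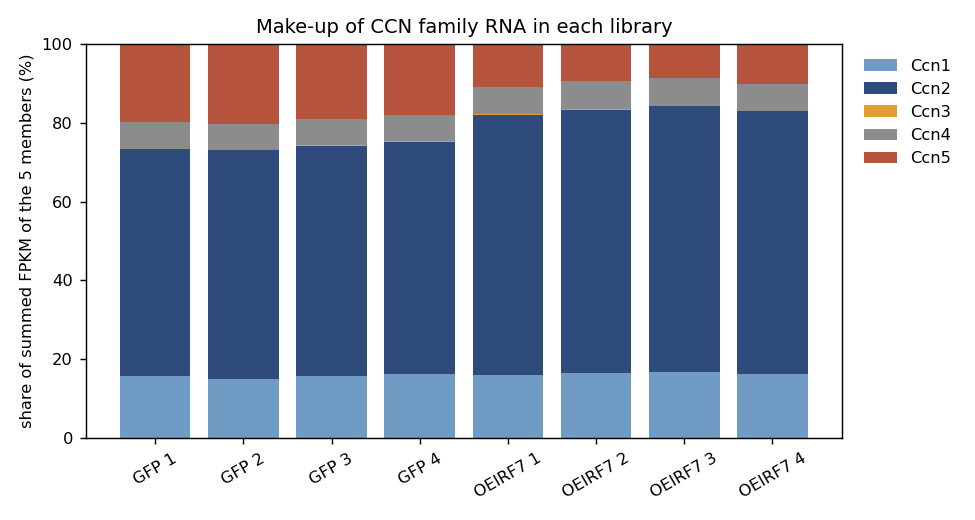
Share of each CCN gene in the summed FPKM of the 5 members (percent, stacked to the whole), 1 bar per library. Ccn5 takes 18.1 to 20.3% in the GFP libraries and 8.75 to 10.8% in the OEIRF7 libraries, Ccn2 takes 57.6 to 58.9% and 66.1 to 67.5%, and the Ccn3 share is too thin to see.

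The genes that surround the CCN family were taken from 6 lists drawn up from general knowledge. CCN members were left out of these lists, which are described by their counts beside the background of 29.0% of tested genes called higher and 29.9% called lower. Adjusted p-values are from edgeR throughout, and Fn1 and Srf each stand in a pair of the lists.

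Among 20 YAP/TAZ-TEAD target genes, the class that Ccn1 and Ccn2 belong to, 12 fell, 7 rose and 1 was not called, with a median log2 fold change of -0.53. The largest falls were in Tgfb2, a TGF-β ligand (-1.55), Ankrd1, a stress-responsive ankyrin protein (-1.14), and Igfbp3, which binds insulin-like growth factors (-0.91). The largest rises were in Gadd45a, a DNA damage response gene (1.33), Dock5, an exchange factor for Rac (1.15), and Foxf2, a mesenchymal transcription factor (0.88). Ankrd1 fell from 911 ± 31.8 to 414 ± 30.6 CPM (SD, n = 4 each, adjusted p = 7.7e-11 in edgeR), without overlap. Its change and those of Tgfb2 and Igfbp3, named as the largest falls, were larger in size than those of Ccn1 and Ccn2. Of all genes tested, 45.1% changed more in size than Ccn1 and 68.9% more than Ccn2.

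All 16 SRF/MRTF target genes, which code for contractile and actin-binding proteins, fell, with a median of -0.82. Among those at a mean above 5 CPM the largest falls were in Myl9, a regulatory myosin light chain (-2.49), Acta2, the smooth muscle actin of myofibroblasts (-1.83), and Tpm2, a tropomyosin (-1.36). Acta2 went from 2061 ± 74.3 to 581 ± 46.1 CPM (SD, n = 4 each), with an adjusted p of 1.2e-12 in edgeR. The Ccn5 value of -1.31 lay within the range of this list, which reached from -2.69 (Lmod1, named after its value was seen) to -0.23 (Srf itself), and 5 of the 16 fell further. It also lay within the ranges of the YAP/TAZ-TEAD targets and of the CCN receptors and binding partners.

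The 18 other TGF-β/SMAD target genes did not share a direction: 11 rose, 5 fell and 2 were not called, with a median of 0.17. Bhlhe40, a basic helix-loop-helix repressor (1.06), Tgif1, a SMAD co-repressor (0.70), and Timp1, a metalloproteinase inhibitor (0.53), rose most. The largest falls were in the matrix genes Col3a1 (-0.53), Postn (-0.38) and Col1a1 (-0.16). Among other matrix genes of the list, Fn1 fell (-0.16), Ltbp2 (0.26) and Ltbp3 (0.16) rose, and Col1a2 (-0.05) and Tgfbi (0.03) were not called. Postn, another matricellular protein, went from 2631 ± 93.2 to 2018 ± 94.1 CPM (SD, n = 4 each), beside log2 fold changes of -0.29 for Ccn1 and -0.27 for Ccn4.

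Of 17 regulators of Ccn transcription, 9 fell, 5 rose and 3 were not called, with a median of -0.18. Tead1, a DNA-binding partner of YAP and TAZ, fell from 726 ± 21.8 to 463 ± 4.45 CPM (SD, n = 4 each), a log2 fold change of -0.65 with an adjusted p of 1.9e-10 in edgeR. Tead3 (-0.29) and Yap1 (-0.25) fell, while Tead2 (0.26), the AP-1 subunit Jun (0.53) and Ctnnb1, the β-catenin of Wnt signalling (0.24), rose.

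On the side of the proteins that CCN members bind, 25 of 26 receptors and partners were tested, all but Tnfrsf11a. Of these 12 rose, 10 fell and 3 were not called, with a median of 0.19. The integrin subunits Itgb3 (1.68) and Itga5 (1.44) and the ligand Tgfb1 (1.33) rose most. Itga5, the fibronectin receptor subunit, went from 288 ± 25.2 to 785 ± 44.1 CPM (SD, n = 4 each, adjusted p = 5e-11 in edgeR). Itgam and Itgb2, which form the leukocyte integrin that binds CCN1, rose by 1.07 and 0.65 beside the higher leukocyte markers given above. Itgam is itself among those markers. Bmp4, a growth factor that CCN2 binds (-1.56), Ddr1, a collagen receptor (-0.71), and Lrp6, a Wnt co-receptor (-0.52), fell.

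Of the 8 proteases listed as able to cleave CCN2, 5 were tested, of which 4 rose and 1 fell, with a median of 1.04. Mmp13, a collagenase, went from 1.74 ± 0.261 to 60.1 ± 15.5 CPM (SD, n = 4 each), a log2 fold change of 5.11. Mmp9 rose from 0.185 to 11.2 CPM, where the low level in GFP leaves the size of the fold uncertain. Mmp9 entered the test, and so the count and the median, through its OEIRF7 level. With at least 10 counts required in every library, 3 proteases were called higher. Mmp3, a stromelysin, rose from 249 to 512 CPM. Mmp2, a gelatinase, fell by 0.10 on the log2 scale (adjusted p = 0.022 in edgeR). The call for Mmp2 was lost with no scaling beyond library size, without OEIRF7 replicate 3 and in limma on FPKM.

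**Figure D5:**
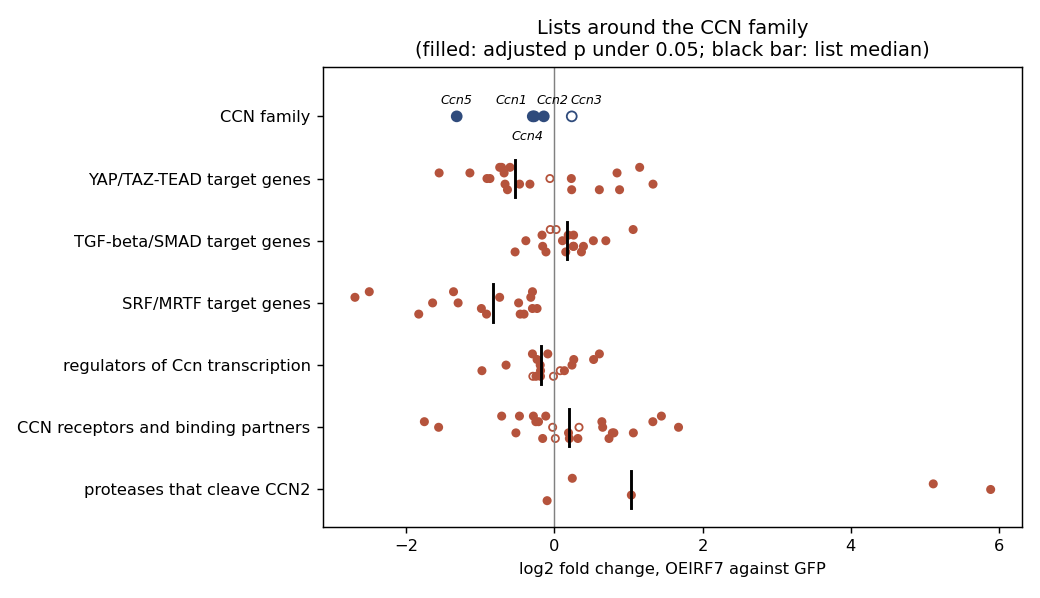
Log2 fold change in OEIRF7 against GFP of the 5 CCN genes (blue) and of the tested genes of the 6 lists (red). Filled points have an adjusted p under 0.05, and black bars mark list medians. All SRF/MRTF targets lie below 0, as do Ccn1, Ccn2, Ccn4 and Ccn5. The protease list reaches 5.89 in Mmp9, which had 0.185 CPM in GFP.

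The genes whose log2 CPM ran most like that of each member over the 8 libraries were sought among 10319 genes with a mean above 5 CPM. These libraries fall into 2 groups, so a high Pearson correlation mostly restates the group difference, and it is given as a description. For Ccn5 the closest were Ptp4a3, a tyrosine phosphatase (r = 0.999), Rnf181 (0.998) and Add1 (0.998), and 19.7% of genes had r above 0.9. For Ccn1 they included Kxd1 (0.991) and Ntn4 (0.991), with 12.3% above 0.9, and for Ccn4 they were Slit2 (0.991), Cyp2d22 (0.987) and Trpc1 (0.984), with 9.2%. For Ccn2 they were Bhlhe41 (0.979), Parn (0.973) and Smad3 (0.972), with 1.36%, and for Ccn3 they were Bicral (0.966), Ifnar2 (0.950) and Ctnnbl1 (0.924), with 0.0969%.

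Deviations from the group means show what the libraries shared beyond the groups. By this measure the share of the 10319 genes with r above 0.9 ran from 0.388% for Ccn3 to 1.53% for Ccn2. The closest genes were picked from many over few libraries, so these r values are given as a description. Ccn1 and Ccn2 deviated together most closely (r = 0.921 over 8 libraries), followed by Ccn2 with Ccn4 (0.886) and Ccn4 with Ccn5 (0.874), and Ccn3 with Ccn5 the least (0.487). OEIRF7 replicate 3 was the lowest library of its group for each of the 5 members in CPM, and the part of that library in these values was not tested. The genes closest in deviation were Dcbld2 (0.996), Bcap29 (0.986) and Scly (0.981) for Ccn2, Magi3 (0.979), Rcl1 (0.979) and Smad3 (0.976) for Ccn1, and Rab3il1 (0.981), Tmem64 (0.979) and Ptp4a3 (0.977) for Ccn5. For Ccn4 they were Tcea3 (0.992), Ttc37 (0.989) and Ipmk (0.983), and for Ccn3 they were Lrrc75a (0.988), Nsun3 (0.9753) and Rchy1 (0.972). Of the genes so named, Ptp4a3 was the one that stood among the closest to the same member in both measures.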

How the data were processed

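RNA-seq had been performed on 8 libraries, 4 per group. Per the study's methods, the authors trimmed reads with Trimmomatic, mapped them with HISAT2 to GRCm38, took deposited read counts per gene from HTSeq-count and deposited FPKM from Cufflinks. Tool versions and the strand setting were not given in the sources used here, and the methods and the sample labels name different extraction and library kits. The deposited group means in FPKM, log2 fold changes, p-values and false discovery rates hold the authors' own comparison (DESeq) and were not used. In 121 symbols the letters "nc" had been overwritten by "GFP" and were restored from the gene identifier.

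The deposited counts entered edgeR 4.0.16 under R 4.3.3 (filterByExpr, TMM, quasi-likelihood test, Benjamini-Hochberg over 13533 genes, threshold 0.05, no covariates), checked on simulated counts. CPM used TMM library sizes, and log2 CPM for ratios and correlations used a prior count of 2. Exact two-sided permutation tests compared 4 with 4 libraries. DESeq2 1.42.0 and limma 3.58.1 on log2(FPKM + 1) served as alternatives, with other scalings, filters and the omission of each library. Replicate pairs differed beyond sampling noise. Coding sequences were aligned with MAFFT 7.526. In each list, up to 3 genes with the largest rise and 3 with the largest fall were named among those called at a mean above 5 CPM; members and lists were chosen with earlier results of these data known. For each member, the 3 genes with the highest correlation were named by each measure, except 1 gene that is not reported here.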

Additional observations from a re-analysis of the deposited data

Results flagged for a closer look

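Values of 1 library that stood apart from the other 3 of its group, with a gap over the group's range above Dixon's 95% critical value for 4 samples, were sought in 74 groups of 4 libraries (the named genes in each group), of which chance alone flags about 1 in 20. There were 4. OEIRF7 replicate 3 held Bhlhe40 at 334.0 CPM and Tgfb2 at 28.58 CPM, both the lowest of the group, and Dock5 at 163.3 CPM, the highest. GFP replicate 2 held Bmp4 at 60.17 CPM, the highest of its group. None was a CCN gene.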

How the results depend on the processing

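Of the alternatives run, 452 values kept their direction and their side of the threshold or stayed within the spread, 16 moved, 3 lost and 2 gained a call, and no called value changed sign. The 452 include the differences between 2 CCN members without 1 library, which hold no adjusted p. With 3 against 4 libraries the exact permutation test allows no p below 0.057, so those calls were not tested again. The uncalled difference between Ccn1 and Ccn4 (-0.02) lay between -0.04 and 0.0050 without 1 library, above 0 without GFP replicate 4 or OEIRF7 replicate 1. Ccn1, Ccn4 and Ccn5 kept their calls under every alternative. Ccn2 lost its call in limma on log2(FPKM + 1) (-0.12, adjusted p = 0.084), on log2(FPKM + 0.1) (-0.12, 0.079) and without a filter (-0.12, 0.22). Leaving out 1 library at a time, log2 fold changes ran from -1.37 to -1.22 for Ccn5, -0.32 to -0.25 for Ccn1, -0.30 to -0.22 for Ccn4, -0.17 to -0.09 for Ccn2 and 0.14 to 0.30 for Ccn3, which was called without OEIRF7 replicate 3. In limma without a filter the TGF-β/SMAD list held 3 lower genes and the regulators 5. The count of lower proteases went from 1 to 0 with no scaling and in the 3 limma fits, and ranged from 0 (without OEIRF7 replicate 3) to 1 when 1 library was left out. By summed CPM in place of FPKM, the GFP and OEIRF7 shares were 13.36% and 13.43% for Ccn1, 0.1491% and 0.2152% for Ccn3, 13.91% and 14.17% for Ccn4 and 13.99% and 6.888% for Ccn5, and 65.29% for Ccn2 in OEIRF7, as CPM is not divided by gene length. Same-numbered libraries deviated together only weakly (r from 0.0792 to 0.138, against -0.158 to 0.0476 for other numbers), though 8 of 8 correlated best with their own number; with the replicate number as a block Ccn3 was called (0.23, adjusted p = 0.048) and 4057 genes were higher and 4154 lower in place of 3924 and 4045. Ccn3 had the fewest counts of the members, 156 to 242 per library.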
